A study of Mus musculus with 2 samples.

Results

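The genes of oxidative phosphorylation were examined in single cells of the mouse spleen, in which transcript 3' ends were captured in droplets and counted by unique molecular identifiers (UMIs), 1 per captured RNA molecule. The members were all features whose symbol starts with mt-, Nduf, Uqcr or Atp5, is Sdha to Sdhd, or starts with Cox and a digit from 4 to 8. This rule, which used no measured value, found 107 of 32285 features. They comprise 13 mitochondrially encoded genes and 84 nuclear-encoded subunits, together with 8 complex I assembly factors (Ndufaf symbols), the supercomplex factor Cox7a2l and Ndufb1-ps, a complex I feature that RefSeq lists as Ndufb1. The subunits fall into 36 nuclear-encoded and 7 mitochondrial genes of complex I, 4 nuclear genes of complex II, 8 and 1 of complex III, 19 and 3 of complex IV, and 17 and 2 of complex V.

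The tested library held splenocytes of MEFV M694I knock-in mice and the other held splenocytes of age-matched wild-type mice. The Mefv product pyrin is a sensor that assembles an inflammasome, and its human variants cause familial Mediterranean fever. The titles name a single mouse per library, and the sources used here do not give sex, strain, zygosity or age in weeks. Spleens were disrupted mechanically and red cells lysed, and no sort is named.

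Oxidative phosphorylation couples the transfer of electrons along respiratory complexes I to IV to the pumping of protons across the inner mitochondrial membrane, and complex V (ATP synthase) uses the resulting gradient to make ATP. Complexes I, III, IV and V combine subunits read from the mitochondrial genome with nuclear-encoded subunits that are imported, while complex II is nuclear-encoded throughout. The mitochondrial messages are cut from long transcripts that span most of the circular genome, so that their levels after transcription depend on processing and decay. Resting lymphocytes have few mitochondria and add to them when they are activated and divide.

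The knock-in library held 9000 barcodes and 25193274 UMIs, and the wild-type library held 10449 barcodes and 32797052 UMIs. After filtering, 8453 knock-in cells with a median of 2028 UMIs and 9550 wild-type cells with a median of 2533 UMIs were kept. The libraries had 27 barcodes in common, of which 22 passed the filters in both. A cell entered a class when at least 2 of that class's marker genes had a UMI and no other class reached 2. The B gate held 4930 knock-in and 5736 wild-type cells, the T gate 1759 and 1863, the NK gate 148 and 294, the monocyte gate 108 and 139, the plasma gate 119 and 38, and the neutrophil gate 48 and 106. Exactly 2 markers were seen in 1636 knock-in and 1861 wild-type B-gated cells, and the median B-gated cell had 0 UMI-positive markers of any other class. Of 45 marker genes that were not used for gating, 40 in knock-in and 31 in wild-type cells were highest in the gate they mark. Of 5 such markers each, those of plasmacytoid dendritic cells were highest in their gate for 4 in both libraries, and those of B cells for 3. The macrophage and conventional dendritic cell gates held under 30 knock-in cells each and went against most of these markers in wild-type cells, and they are not described.

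With 1 library for each genotype there was no replicate and no significance test. Every ratio below is a log2 ratio of knock-in over wild-type, and every interval is at the 95% level and holds counting error alone. Any difference between the 2 libraries, whether from genotype, mouse or preparation, cannot be told apart. A summed level per gate is a share of that gate's UMIs, in which fewer mitochondria for each cell and less RNA for each mitochondrion cannot be told apart.

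The mitochondrially encoded messages were lower in the knock-in library in the B, T, NK, monocyte and plasma gates. They took 4.25% of B-gated UMIs in knock-in cells and 5.20% in wild-type cells, a log2 ratio of -0.29 (-0.295 to -0.285). In T-gated cells they took 3.74% in knock-in and 4.15% in wild-type cells (log2 ratio -0.15, -0.155 to -0.138). The shares were 2.85% in knock-in and 3.41% in wild-type cells of the NK gate (-0.26), 2.40% and 3.04% in the monocyte gate (-0.34) and 1.66% and 2.48% in the plasma gate (-0.58).

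Because the 13 members set the mitochondrial share on which cells are filtered at 10%, the values were also taken with no such limit. Without it, mitochondrial messages took 4.40% of B-gated UMIs in knock-in and 5.51% in wild-type cells, and 3.84% and 4.32% of T-gated UMIs. At or above the limit were 396 knock-in barcodes (4.41%) and 668 wild-type barcodes (6.42%). With a stricter limit of 5% the ratios were -0.13 in B-gated and -0.08 in T-gated cells.

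The difference was present across cells rather than in a few of them. The median B-gated cell had 4.21% mitochondrial UMIs in the knock-in library, with quartiles of 3.47% and 5.12%, and 5.02% in the wild-type library, with quartiles of 4.19% and 6.06%. The median T-gated cell had 3.64% in knock-in and 3.98% in wild-type. When cells were split into 6 ranges of total UMIs, the knock-in median was below the wild-type median in each range, in B-gated and in T-gated cells alike. The lowest range, under 1000 UMIs, held only 26 wild-type B-gated and 5 wild-type T-gated cells. For B-gated cells of 2000 to 3000 UMIs the medians were 4.19% in knock-in and 4.97% in wild-type, and for those of at least 5000 UMIs they were 3.90% and 5.08%.

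**Figure D1:**
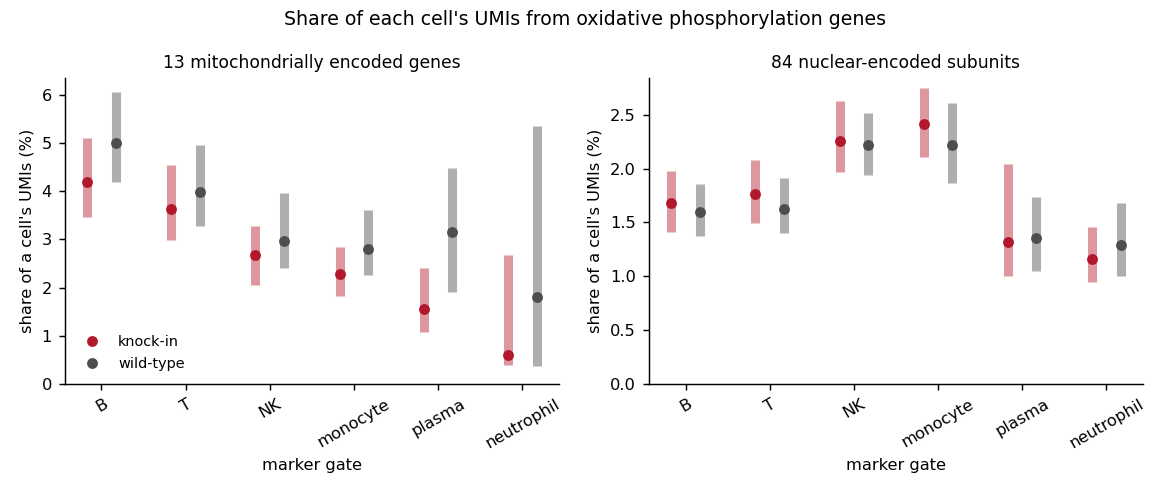
Share of each cell's UMIs from the 13 mitochondrially encoded genes (left) and the 84 nuclear-encoded subunits (right) by marker gate, with knock-in in red and wild-type in grey; points are medians over cells and bars span the quartiles. The mitochondrial median is lower in knock-in cells in all 6 gates (4.21% and 5.02% in B-gated cells), and the nuclear median is higher in knock-in cells in the B, T, NK and monocyte gates.

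Malat1 and Neat1, long non-coding RNAs held in the nucleus, were also lower in the knock-in library. They are the 2 genes with the largest ratios in size on their list. Malat1 took 1.89% of B-gated UMIs in knock-in and 3.01% in wild-type cells (log2 ratio -0.67) and was at -0.54 in T-gated cells. Neat1 was at -0.46 in B-gated cells and at -0.19 in T-gated cells, where it did not reach 0.32 in size. The sum of cytosolic ribosomal protein messages was at -0.02 in B-gated and -0.08 in T-gated cells, over members that went both ways. Rps29 was at -0.70 and Rps21 at -0.65 in B-gated cells, and Rps29 at -0.80 and Rps15 at -0.72 in T-gated cells. By at least 0.32 in log2 ratio, 4 of 81 on the whole list were higher and 14 lower in B-gated cells. Of all genes 15.6% were higher and 20.9% lower there, so the 14 of 81 are not above that share. In T-gated cells 2 were higher and 21 lower, where 18.0% and 13.9% of all genes were. Haemoglobin messages, which B and T cells do not make, stood at 245.8 CPM (UMIs per 1000000 UMIs of the gate) in knock-in and 105.4 CPM in wild-type B-gated cells, but at 6.85 CPM and 101.1 CPM in T-gated cells. Hbb-bt (1.37) and Hbb-bs (1.30) led the list in B-gated cells and Hba-a1 (-5.21) and Hba-a2 (-4.38) in T-gated cells, and platelet genes were under 3 CPM in both. The part of these differences in the mitochondrial result was not tested.

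The 13 mitochondrial genes did not differ to the same degree. Their 3' ends are the stretches from which poly(A)-primed reads start, and those of the 2 genes with the largest differences in B-gated and T-gated cells (mt-Nd3, mt-Nd1), of mt-Co3, which ends on an incomplete stop codon that the poly(A) tail completes, and of the genes with small differences (mt-Co2, mt-Co1) are shown for comparison. All are the last 60 bases of the gene on the plus strand of the mitochondrial chromosome in GRCm38, at chrM:9747-9806, chrM:3648-3707, chrM:9331-9390, chrM:7637-7696 and chrM:6813-6872 in this order, read 5′ to 3′, with the stop codon bases that the gene holds in capitals.
mt-Nd3: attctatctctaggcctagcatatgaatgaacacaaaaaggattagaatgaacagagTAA
mt-Nd1: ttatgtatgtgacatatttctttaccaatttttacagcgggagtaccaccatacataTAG
mt-Co3: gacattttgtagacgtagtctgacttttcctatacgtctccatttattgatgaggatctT
mt-Co2: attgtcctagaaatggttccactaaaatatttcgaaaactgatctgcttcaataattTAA
mt-Co1: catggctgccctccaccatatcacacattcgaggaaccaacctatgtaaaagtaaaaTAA

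Complex I, which takes electrons from NADH, had the lowest mitochondrial ratio of the 4 complexes that hold mitochondrial subunits, in each of the B, T, NK, monocyte and plasma gates. Its 7 messages together stood at -0.58 (-0.59 to -0.57) in B-gated cells and -0.33 (-0.35 to -0.31) in T-gated cells. The single complex III message and the sums of complexes IV and V were at -0.26, -0.22 and -0.21 in B-gated cells and at -0.11, -0.14 and -0.05 in T-gated cells. In plasma-gated cells complex I was at -0.91, against -0.56 for complex III, -0.52 for complex IV and -0.46 for complex V.

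Within complex I the membrane-arm subunit mt-Nd3 differed most. It had 228 CPM (2874 UMIs) in knock-in and 582.9 CPM (10198 UMIs) in wild-type B-gated cells, a log2 ratio of -1.35 (-1.42 to -1.30), and 198 CPM and 433.9 CPM in T-gated cells (-1.13). It was also lower in NK-gated cells (201.5 CPM in knock-in, 417.7 CPM in wild-type, -1.05), monocyte-gated cells (157.7 and 361.5 CPM, -1.20) and plasma-gated cells (80.4 and 323.7 CPM, -2.01). The counting intervals excluded 0 in all 5 gates.

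The quinone-site neighbour mt-Nd1 was the next, at -0.91 in B-gated and -0.64 in T-gated cells. The proton-pumping subunit mt-Nd2 was at -0.58 and -0.30, mt-Nd4 at -0.40 and -0.16, and mt-Nd5 at -0.26 and -0.05, the last with an interval that included 0. The short mt-Nd4l was at -0.44 and -0.19, and mt-Nd6, the only member read from the other strand, was at -0.78 on 199 knock-in and 475 wild-type UMIs and at -0.44 on 75 and 134 UMIs. The mt-Nd4l and mt-Nd4 genes overlap on the same strand, as do mt-Atp8, mt-Atp6 and mt-Co3 at their ends, so reads there can be assigned to either gene. The 12 genes other than mt-Nd6 are cut from the transcript of 1 strand and are not independent measurements.

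Cytochrome b (mt-Cytb), the complex III subunit, was at -0.26 in B-gated and -0.11 in T-gated cells. In complex IV, which reduces oxygen, the 3 catalytic-core genes split. The gene for subunit mt-Co1 had 8599 CPM in knock-in and 9210 CPM in wild-type B-gated cells (-0.10) and 7244 CPM and 7417 CPM in T-gated cells (-0.03), and mt-Co2 was at -0.17 and -0.06, whereas mt-Co3 was at -0.53 and -0.43. In complex V the proton-channel subunit mt-Atp6 was at -0.21 and -0.05 and mt-Atp8 at -0.35 and -0.27.

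As parts of the mitochondrial total in B-gated cells, mt-Nd3 made up 0.536% in knock-in and 1.12% in wild-type cells, mt-Nd1 3.22% and 4.92%, and mt-Co3 9.70% and 11.4%, while mt-Co1 made up 20.2% and 17.7%. The 3 shortest mitochondrial genes, mt-Atp8 of 204 nt, mt-Nd4l of 297 nt and mt-Nd3 of 348 nt, spanned -0.35 to -1.35 in B-gated cells, and mt-Nd1, of 957 nt, lay between mt-Nd3 and all others. A threshold of 0.32 in size on the log2 scale, or 1.25-fold, was passed in the lower direction by 8 of the 13 genes in B-gated cells, where 20.9% of all 9192 genes with at least 100 UMIs did so, and by 4 of the 13 in T-gated cells, where 13.9% of 7145 genes did. No mitochondrial gene passed it in the higher direction.

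**Figure D2:**
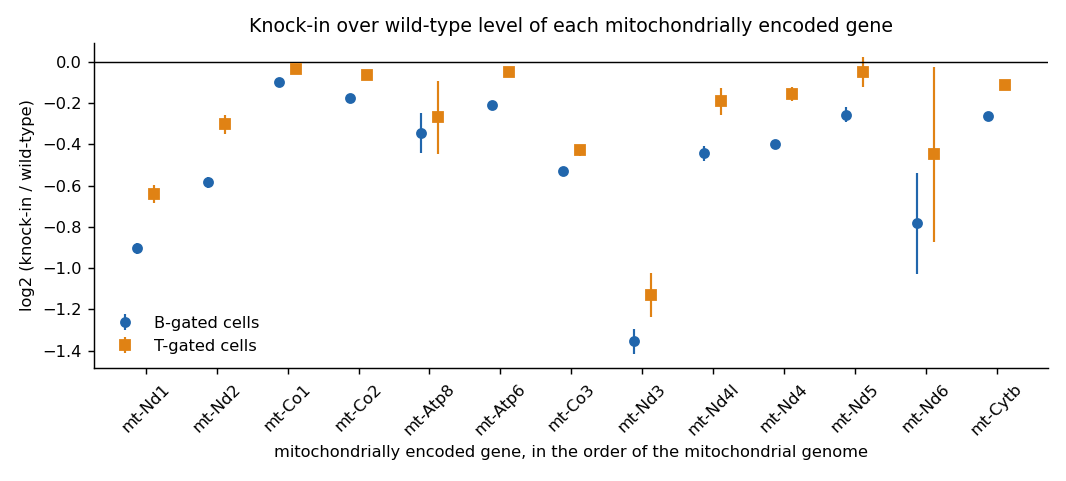
Log2 ratio of knock-in over wild-type for each of the 13 mitochondrially encoded genes in genome order, in B-gated (blue circles) and T-gated cells (orange squares); bars are 95% counting intervals. All 13 points lie below 0 in both gates, lowest at mt-Nd3 (-1.35 in B-gated and -1.13 in T-gated cells) and nearest 0 at mt-Co1 (-0.10 and -0.03).

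The nuclear-encoded subunits went the other way in their sum. The 84 genes together took 1.85% of B-gated UMIs in knock-in and 1.71% in wild-type cells (log2 ratio 0.11, 0.107 to 0.123), and 1.93% and 1.82% of T-gated UMIs (0.09, 0.077 to 0.102). The ratio was 0.15 (0.11 to 0.19) in monocyte-gated cells and 0.04 in NK-gated cells, where the interval of -0.003 to 0.077 included 0. The plasma gate is described apart. In each of the 6 depth ranges the median nuclear share was higher in knock-in cells, in both the B and the T gate, with few wild-type cells in the lowest range.

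Among B-gated cells the ratio of the sum was 0.29 (0.25 to 0.32) in marginal zone B cells, defined by Cr2, Dtx1, S1pr3 and Myof, with 2.17% in knock-in and 1.78% in wild-type cells. It was 0.15 in activated B cells, defined by Mir155hg, Nfkbid, Irf4 and Myc, and 0.10 in the other B cells. Of the 67 subunits with enough UMIs in marginal zone B cells 32 were higher and 1 lower, where 25.9% of all genes were higher and 19.2% lower. In the activated B cells 27 of 76 were higher and 4 lower, where 17.5% of all genes were higher and 27.2% lower. Atp5c1, a stalk subunit of ATP synthase, had 333.3 CPM in knock-in and 169.5 CPM in wild-type marginal zone B cells (0.98), a gene that is also among the higher members over all B-gated cells. Of the marginal zone cells 10 of 111 in knock-in and 6 of 162 in wild-type were cycling. These cells were also deeper, with medians of 3669 UMIs in knock-in and 3732.5 in wild-type. The medians were 2553.5 and 2814 UMIs in activated B cells and 1793 and 2279 in the other B cells. The part of cycling or of depth in the marginal zone result was not tested. Within T-gated cells the nuclear sum was at 0.07 in CD4, 0.09 in CD8 and 0.12 in the remaining T cells, and the mitochondrial sum at -0.30, -0.13 and -0.15.

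Dividing the sums, mitochondrial UMIs per nuclear subunit UMI stood at 2.30 in knock-in and 3.05 in wild-type B-gated cells, 1.94 and 2.28 in T-gated cells, 1.24 and 1.52 in NK-gated cells, 0.954 and 1.34 in monocyte-gated cells, and 1.04 and 1.47 in plasma-gated cells. For complex I alone the quotient was 1.37 in knock-in and 2.29 in wild-type B-gated cells, and for complex III it was 3.13 and 3.91. UMI counting takes 1 count per molecule irrespective of length, so these quotients compare molecules captured, not protein.

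**Figure D3:**
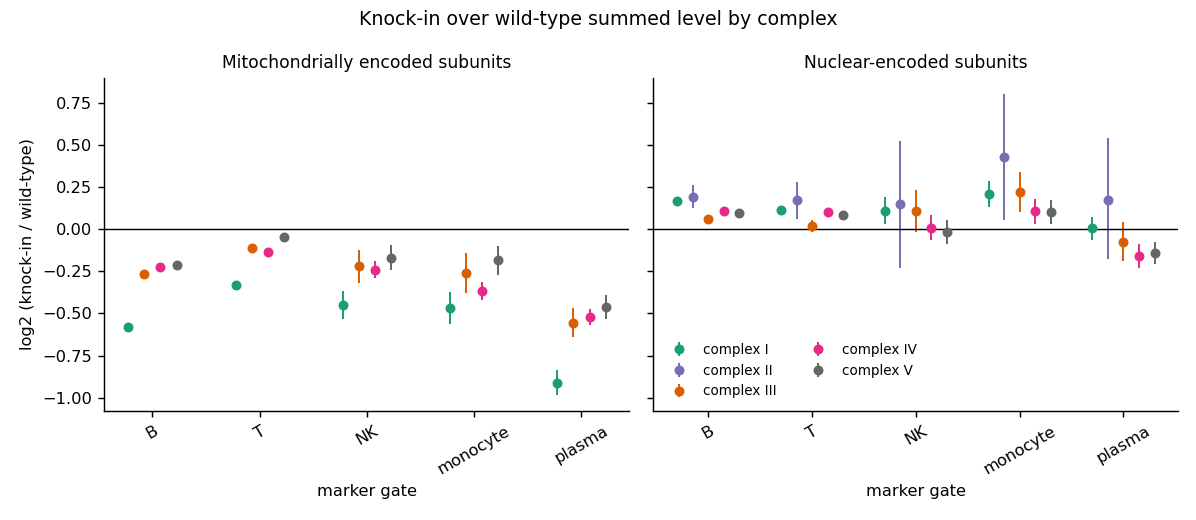
Log2 ratio of knock-in over wild-type of the summed mitochondrially encoded (left) and nuclear-encoded subunits (right) of each complex, by marker gate; bars are 95% counting intervals. Complex I is lowest among the mitochondrial sums in all 5 gates shown (-0.58 in B-gated cells), while the nuclear sums of B-gated and T-gated cells lie between 0.02 and 0.19.

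Of the 84 nuclear-encoded subunits, 76 had at least 100 UMIs in B-gated cells and the same number in T-gated cells. In B-gated cells 19 of the 76 were higher by the threshold and 3 lower, where 15.6% of all genes were higher and 20.9% lower. In T-gated cells 11 of the 76 (14.5%) were higher and 3 lower, where 18.0% of all genes were higher and 13.9% lower, so the share of higher members there was below that of all genes. The counts in smaller gates were 12 higher and 6 lower of 59 in the NK gate, where 19.5% and 19.1% of all genes were, and 19 higher and 3 lower of 58 in the monocyte gate, where 19.2% and 18.6% were. Their median log2 ratio was 0.18 in B-gated and 0.15 in T-gated cells, against -0.05 and 0.03 over all genes. None of the 76 was higher in B-gated and lower in T-gated cells, or the reverse. With only 3 lower members in each of these gates this says little, and the share over all genes was not taken.

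Complex I, which supplied 36 of the 76 subunits, held 12 of the 19 higher members in B-gated and 7 of the 11 in T-gated cells. Its share of higher members was above the 15.6% of all genes in B-gated cells and near the 18.0% of all genes in T-gated cells. The iron-sulphur subunit Ndufs7, which passes electrons to quinone, had 100.5 CPM in knock-in and 62.0 CPM in wild-type B-gated cells (0.70, 0.58 to 0.82) and 90.4 CPM and 57.4 CPM in T-gated cells (0.66). The NADH-binding subunit Ndufv1 had 44.3 CPM in knock-in and 27.9 CPM in wild-type B-gated cells (0.67) and 42.9 CPM and 31.6 CPM in T-gated cells (0.44). Both were higher in both gates beyond the counting intervals.

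Further members of the electron-transfer arm were less uniform. Ndufs8, another iron-sulphur subunit, was at 0.53 in B-gated but 0.11 in T-gated cells, where the interval of -0.09 to 0.31 included 0. Ndufs1, the largest iron-sulphur subunit, had intervals that included 0 in both gates (-0.13 and -0.02). The accessory subunit Ndufa13 was at 0.38 and 0.46. At the low end Ndufa3, an accessory subunit of the membrane arm, was at -0.29 and -0.32, and Ndufa2 at -0.01 and -0.25. Ndufb1-ps, outside the sums, was at -0.40 and -0.35. Among assembly factors Ndufaf4 was at -0.20 and 0.31, and Ndufaf3 was at 0.45 and 0.69, with 315 knock-in and 320 wild-type UMIs in B-gated cells.

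Complex II, which also belongs to the citric acid cycle, summed to 0.19 (0.12 to 0.26) in B-gated and 0.17 (0.06 to 0.28) in T-gated cells. Its iron-sulphur subunit Sdhb had 120.9 CPM in knock-in and 94.5 CPM in wild-type B-gated cells (0.35) and was at 0.27 in T-gated cells. The flavoprotein Sdha differed by less than its counting interval in both gates (0.03 and 0.02), and so did the membrane anchor Sdhc (-0.18 and 0.21). The other anchor, Sdhd, was at 0.18 and 0.09.

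In complex III the nuclear sum was at 0.06 (0.03 to 0.08) in B-gated and 0.02 (-0.02 to 0.06) in T-gated cells. It leaves out Cyc1, whose symbol is not in the rule. The core subunit Uqcrc2 was at 0.36 and 0.22 and the Rieske iron-sulphur protein Uqcrfs1 at 0.27 and 0.24, and Uqcrb was at 0.24 and 0.23. The second core subunit, Uqcrc1, was at 0.20 in B-gated and -0.02 in T-gated cells. The small subunits Uqcr10 (-0.20 and -0.21) and Uqcrq (-0.16 and -0.06) were below 0, and Uqcr11 was within its interval of 0 in both gates.

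No nuclear subunit of complex IV passed the threshold in either gate, and the sum was at 0.11 in B-gated and 0.10 in T-gated cells. Cox4i1, the nuclear subunit that binds regulatory nucleotides, had 722.6 CPM in knock-in and 646.3 CPM in wild-type B-gated cells (0.16) and 749.9 CPM and 705.0 CPM in T-gated cells (0.09). Cox5a was the highest, at 0.29 and 0.31, with Cox6b1 (0.22 and 0.21), Cox5b (0.21 and 0.20), Cox8a (0.18 and 0.24) and Ndufa4 (0.18 and 0.26) close behind. Cox7c was at -0.22 and -0.16 and Cox6a1 at -0.04 and -0.22, and Cox6c was within its interval of 0 in both. The supercomplex factor Cox7a2l was too (0.03 and -0.12).

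Of the 17 nuclear subunits of complex V, 5 were higher and 3 lower in B-gated cells, where 15.6% and 20.9% of all genes were. In T-gated cells 4 (23.53%) were higher and 3 lower, where 18.0% and 13.9% of all genes were. The 3 lower members (17.65%) are near the share over all genes in both gates. The central-stalk subunit Atp5c1 had 256.9 CPM in knock-in and 171.7 CPM in wild-type B-gated cells (0.58, 0.51 to 0.65) and 275.5 CPM and 212.3 CPM in T-gated cells (0.38). The stalk subunit Atp5d was at 0.39 and 0.36, and Atp5h, of the peripheral stalk, at 0.29 and 0.37. The catalytic subunits Atp5a1 (0.15 and 0.14) and Atp5b (0.15 and 0.22) were nearer 0.

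The subunits Atp5k, Atp5md and Atp5mpl, small membrane proteins of the ATP synthase dimer, were the only ones of the 76 lower by the threshold in both gates. Ndufb1-ps, which is outside the 76, was lower by the threshold in both gates as well. Atp5k had 145.0 CPM in knock-in and 206.7 CPM in wild-type B-gated cells (-0.51) and 142.8 CPM and 216.9 CPM in T-gated cells (-0.60). Atp5md was at -0.42 and -0.47 and Atp5mpl at -0.41 and -0.45. The counting intervals of Atp5k, Atp5md and Atp5mpl were all below 0. Exons of 37 of the 107 members overlap another annotated feature, Atp5md with Taf5 on the opposite strand among them, and whether the counting used strand is not given in the sources used here.

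Among the 76, these lower members are the 3 with transcripts under 400 nt (371, 362 and 366 nt for Atp5k, Atp5md and Atp5mpl), and ratios over all genes also followed transcript length. Ndufb1-ps, lower in both gates but outside the 76, has an annotated transcript of 861 nt. In B-gated cells the median of the 39 genes under 400 nt was -0.29 and that of the 3 members -0.42, and in T-gated cells the medians were -0.26 over 27 genes and -0.47. From 800 to 1200 nt the median was 0.24 over 693 genes and 0.28 over 16 members in B-gated cells, and 0.22 over 576 genes and 0.20 over 16 members in T-gated cells. Above 2000 nt all genes had a median of -0.15 in B-gated and -0.05 in T-gated cells, and the 7 members had 0.08 and 0.15.

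When the trend on transcript length over all genes was taken out, an alternative chosen after the data had been seen, 5 nuclear subunits were higher and 7 lower in B-gated cells, and 4 higher and 7 lower in T-gated cells. Of all genes 9.93% were then higher and 16.9% lower in B-gated cells, and 15.4% and 11.6% in T-gated cells. The median of the members was -0.01 in B-gated and 0.01 in T-gated cells, against -0.05 and 0.03 over all genes.

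**Figure D4:**
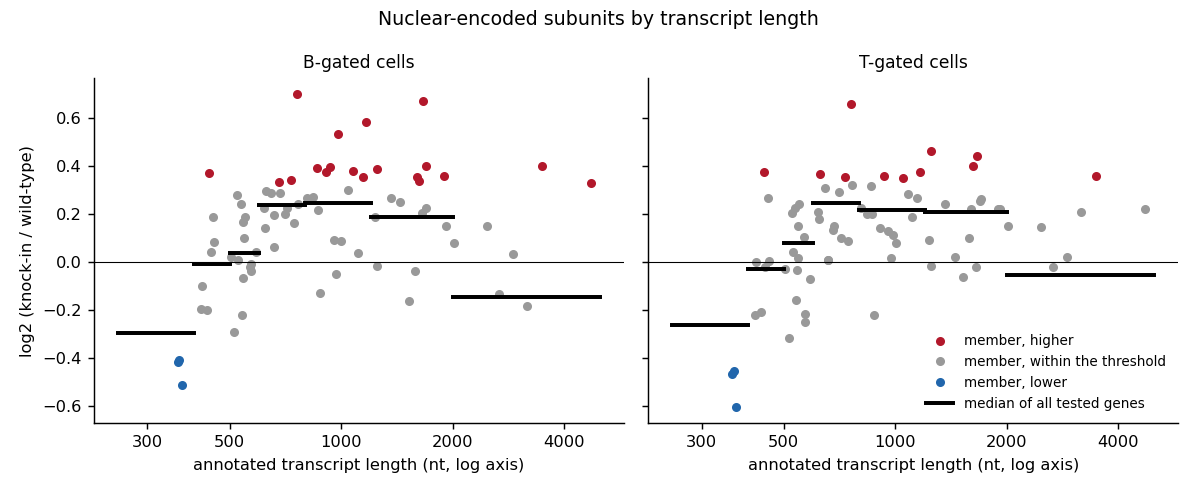
Log2 ratio of knock-in over wild-type of each nuclear-encoded subunit against annotated transcript length in nucleotides (log axis), in B-gated (left) and T-gated cells (right); black lines are medians of all genes in 7 length ranges. The 3 members under 400 nt lie between -0.41 and -0.51 in B-gated cells, where the median of all genes in that range is -0.29, and the members of 800 to 1200 nt have a median of 0.28 where all genes have 0.24.

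Atp5k on the low side and Atp5g2, the main gene for the membrane ring subunit c, on the high side carry the same motif upstream of a RefSeq start. Atp5g2 had 843.6 CPM in knock-in and 653.6 CPM in wild-type B-gated cells (0.37) and 819.1 CPM and 632.6 CPM in T-gated cells (0.37). A palindrome of 10 bases that is the core of the binding motif of nuclear respiratory factor 1 (NRF1) ends 32 bases upstream of the RefSeq start of Atp5g2 and 40 bases upstream of that of Atp5k. The GENCODE annotation, used for transcript lengths, starts these minus-strand genes at chr15:102672352 and chr5:108434448. By it the Atp5g2 palindrome lies inside the gene and the Atp5k palindrome at the gene's start. The surrounding 50 bases are shown because they share it, with the palindrome in capitals, and they read 5′ to 3′ on the minus strand of GRCm38.p6, at chr15:102671060-102671109 for Atp5g2 and chr5:108434420-108434469 for Atp5k.
Atp5g2: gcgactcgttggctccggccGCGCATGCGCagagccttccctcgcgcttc
Atp5k: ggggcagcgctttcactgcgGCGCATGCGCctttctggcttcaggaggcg

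This exact palindrome was found within 250 bases upstream of 5 of the 77 nuclear-encoded members in the RefSeq promoter table (6.49%) and of 0.877% of all 27025 genes. The ETS core CCGGAAG, searched on both strands, was found for 14 members (18.2%) and 7.83% of all genes. In B-gated cells the 4 subunits with the NRF1 motif and enough UMIs (Atp5k, Cox6a1, Ndufa11 and Atp5g2) ranged from -0.51 to 0.37, and the 60 without it from -0.42 to 0.70. The transcripts of the regulators Nrf1 (-0.24) and Gabpa (-0.31) did not reach the threshold in B-gated cells.

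Subunit c is made from 3 genes with different import sequences and the same mature protein. Of their UMIs in B-gated cells, Atp5g2 gave 62.4% in knock-in and 60.9% in wild-type, Atp5g1 20.9% and 21.0%, and Atp5g3 16.7% and 18.1%. Plasma-gated cells used more Atp5g1, at 30.9% (28.8% to 33.1%) in knock-in and 33.5% (29.3% to 37.8%) in wild-type, with intervals that did not overlap those of B-gated cells in either library. Annotated near-identical copies of the last 300 bases were found for 9 members, the nuclear Atp5g2, Cox7c and Atp5h and the mitochondrial mt-Co1, mt-Co2, mt-Co3, mt-Atp6, mt-Nd3 and mt-Nd4l, whose values are uncertain to that degree. None of the copies is a counted feature.

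The isoforms of complex IV that are restricted to muscle, testis or other tissues were absent or rare. Cox7b2, Cox8b and Cox8c had 0 UMIs in both libraries. Over all kept cells Cox4i2 had 6 UMIs in knock-in and 1 in wild-type, Ndufa4l2 3 and 4, Cox7a1 19 and 23, and Cox6b2 48 and 40. They did not reach 100 UMIs, and no ratio is given for them.

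Cox6a2, described as the heart and skeletal muscle form of subunit 6a, was the exception. It had 366 UMIs in knock-in and 227 in wild-type kept cells, 34.4% of them in the plasmacytoid dendritic cell gate in each library. Its exons overlap Itgad on the opposite strand. This gate, defined by Siglech, Klk1, Klk1b27, Ccr9 and Smim5, held 16 knock-in and 14 wild-type cells. There Cox6a2 stood at 2002 CPM (1668 to 2383) in knock-in and 1128 CPM (892 to 1408) in wild-type, and 16 of 16 knock-in and 9 of 14 wild-type cells had a UMI. In B-gated cells it stood at 1.19 CPM in knock-in and 1.26 CPM in wild-type, with a UMI in 0.264% and 0.366% of cells at medians of 1887 and 2404 UMIs, against medians of 3904 and 5132 UMIs in the dendritic gate. NK-gated cells stood at 59.8 CPM (19 UMIs in 3 of 148 cells) in knock-in and 27.5 CPM (20 UMIs in 9 of 294 cells) in wild-type, and plasma-gated cells at 13.9 CPM and 41.8 CPM.

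Of the 39 knock-in and 23 wild-type cells with at least 3 Cox6a2 UMIs, 33 and 20 carried Siglech. Only 15 and 9 of them were in the dendritic gate, and 20 and 11 had markers of more than 1 class. The widely used form Cox6a1 was present in the same gate, at 190.6 CPM in knock-in and 231.4 CPM in wild-type. The highest single cell held 18 of the 126 knock-in and 14 of the 78 wild-type Cox6a2 UMIs of the gate.

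The gates had the same order by nuclear-encoded messages in both libraries. The summed nuclear subunits took 2.52% of monocyte-gated UMIs in knock-in and 2.27% in wild-type cells, then 2.30% and 2.24% in NK-gated, 1.93% and 1.82% in T-gated, 1.85% and 1.71% in B-gated, 1.59% and 1.69% in plasma-gated and 1.39% and 1.48% in neutrophil-gated cells. In the wild-type library the counting intervals of monocyte-gated and NK-gated cells overlapped, and so did those of B-gated and plasma-gated cells. By mitochondrial messages the B, T, NK and monocyte gates ran the other way, highest in B-gated and lowest in monocyte-gated cells in both libraries, with plasma-gated cells below all 4. The place of the plasma gate depends on immunoglobulin, 47.6% of its UMIs in knock-in and 39.8% in wild-type. With immunoglobulin left out of the plasma total, its nuclear sum was 3.03% in knock-in and 2.81% in wild-type, above the monocyte gate. Its mitochondrial sum was then 3.17% and 4.12%, above the NK and monocyte gates. Neutrophil-gated cells were last by their mitochondrial sum in knock-in but stood between T-gated and NK-gated cells in wild-type.

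Monocyte-gated over B-gated cells stood at 0.45 (knock-in) and 0.42 (wild-type) for the nuclear sum and at -0.82 and -0.78 for the mitochondrial sum. The median of the 76 subunits was 0.41 in knock-in and 0.39 in wild-type, against -0.16 and -0.24 over all genes. The members named next were chosen after their values were seen. Ndufa6 had 429.8 CPM in monocyte-gated and 213.0 CPM in B-gated knock-in cells, and 396.2 CPM and 206.7 CPM in wild-type cells. Uqcr11 had 262.8 and 114.0 CPM in knock-in and 201.6 and 110.8 CPM in wild-type cells. Sdha and the catalytic Atp5b were lower in monocyte-gated cells in both libraries, at -0.58 in knock-in and -0.38 in wild-type for Sdha and at -0.46 and -0.32 for Atp5b.

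NK-gated over B-gated cells stood at 0.32 in knock-in and 0.40 in wild-type for the nuclear sum and at -0.58 and -0.61 for the mitochondrial sum. Of the 76 subunits 30 were higher in knock-in NK-gated cells, where 31.7% of all genes were, and 35 in wild-type, where 34.5% were. Some members went opposite ways in the 2 libraries in this contrast, 5 in number, on as few as 148 knock-in NK-gated cells. T-gated over B-gated cells differed little, at 0.07 in knock-in and 0.09 in wild-type for the nuclear sum, with 8 and 12 members higher, where 22.9% and 22.0% of all genes were.

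In plasma-gated cells the nuclear sum was lower in knock-in (log2 ratio -0.09, -0.13 to -0.06), and 8 of 68 subunits were higher and 12 lower, where 23.5% of all genes were higher and 31.8% lower. Immunoglobulin messages made up 47.6% of plasma-gated UMIs in knock-in and 39.8% in wild-type cells. With immunoglobulin left out of the total, an alternative chosen after the data had been seen, the nuclear sum was 3.03% in knock-in and 2.81% in wild-type cells (0.11, 0.07 to 0.15), and the mitochondrial sum 3.17% and 4.12% (-0.38). The mitochondrial ratio was below 0 in both forms. In the wild-type library the 5 deepest of 38 plasma-gated cells held 34.3% of the UMIs.

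Below the 10% limit neutrophil-gated cells had the lowest median mitochondrial share of the 6 gates, 0.593% in knock-in and 1.80% in wild-type cells. Without the limit the medians were 0.813% and 4.12%, and the place in wild-type cells changed. There the 4.12% lay below the B gate (5.11%) but above the T (4.03%), plasma (3.19%), NK (2.99%) and monocyte gates (2.82%). The 5 deepest of 48 knock-in neutrophil-gated cells held 47.2% of that gate's UMIs, and 3 of the 48 were cycling, so its summed ratio is not read.

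In both libraries, cycling cells of the B and T gates had a larger nuclear-encoded and a smaller mitochondrial share of UMIs than other cells. Cycling cells also held more UMIs in total, as given below, and messages per cell were not compared. A cell was called cycling when at least 2 of Mki67, Top2a, Birc5, Cdk1, Ube2c and Pclaf had a UMI, which 76 knock-in and 47 wild-type B-gated cells and 27 and 32 T-gated cells met. The nuclear sum took 2.92% of UMIs in cycling and 1.77% in other knock-in B-gated cells (log2 ratio of cycling over other 0.73, 0.71 to 0.75), and 2.80% and 1.67% in wild-type B-gated cells (0.75). In T-gated cells it took 3.33% in cycling and 1.85% in other knock-in cells (0.85), and 3.30% and 1.71% in wild-type cells (0.95). The mitochondrial sum of cycling over other cells was at -0.54 in both libraries in B-gated cells and at -0.59 in knock-in and -0.63 in wild-type T-gated cells. In the plasma gate the nuclear sum of cycling over other cells was at 1.12 in knock-in and 1.27 in wild-type, and the mitochondrial sum at 0.14 and -0.36. Immunoglobulin messages are in these totals. They made up 54.2% of UMIs in knock-in and 50.4% in wild-type plasma-gated cells outside cycle, against 47.6% and 39.8% over the whole gate. The part of immunoglobulin in the size and sign of the plasma ratios was not tested.

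Nearly all subunits took part. In B-gated cells 69 of 76 were higher in cycling knock-in and 70 in cycling wild-type cells, where 32.1% and 31.3% of all genes were, and 0 were lower, where 36.8% and 39.1% of all genes were. In T-gated cells 69 and 72 of 76 were higher, where 35.9% and 39.3% of all genes were, and 0 were lower, where 34.8% and 33.2% were. The median ratio of the members was 0.81 in knock-in and 0.84 in wild-type B-gated cells, against -0.05 and -0.09 over all genes.

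Cycling cells were deeper, with medians of 9456 UMIs against 1869 in other knock-in B-gated cells, and the call itself needs UMIs. Among cells of at least 5000 UMIs the nuclear sum of cycling over other cells was 0.58 in knock-in and 0.65 in wild-type B-gated cells, and 0.62 and 0.75 in T-gated cells. The mitochondrial sum was then at -0.44 and -0.52 in B-gated and -0.48 and -0.56 in T-gated cells.

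Knock-in B-gated cells held more cycling cells, at 1.54% against 0.819% in wild-type, and T-gated cells 1.53% against 1.72%. Outside cycle the nuclear ratio of knock-in over wild-type was 0.08 in B-gated and 0.11 in T-gated cells, and the mitochondrial ratio -0.27 and -0.15. Without cycling cells 12 of 76 nuclear subunits were higher in B-gated cells in place of 19, where 13.8% of all genes were, a share near that of the members. Within cycling cells the nuclear ratio was 0.06 in B-gated and 0.02 in T-gated cells, where the interval of -0.022 to 0.053 included 0.

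**Figure D5:**
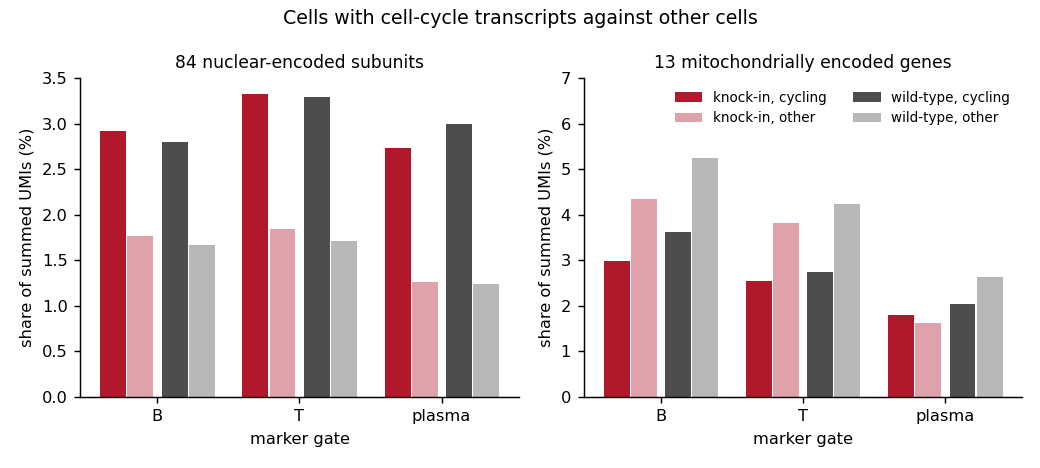
Share of summed UMIs from the nuclear-encoded subunits (left) and the mitochondrially encoded genes (right) in cycling (full colour) and other cells (pale) of 3 gates, knock-in in red and wild-type in grey. The nuclear bars of cycling cells stand above those of other cells in every gate and library (2.92% and 1.77% in knock-in B-gated cells), on 19 cycling plasma-gated cells in knock-in and 4 in wild-type. The totals hold immunoglobulin messages, which made up 54.2% of UMIs in knock-in and 50.4% in wild-type plasma-gated cells outside cycle.

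Other genes of mitochondrial and energy metabolism were counted from lists, to be read against the 15.6% of all genes higher and 20.9% lower in B-gated cells and the 18.0% and 13.9% in T-gated cells. Of the mitochondrial ribosomal protein genes (Mrpl and Mrps), which translate the mitochondrial messages, 26 of 78 were higher and 0 lower in B-gated cells, and 27 of 75 higher and 1 lower in T-gated cells, with sums at 0.22 in both. Mrpl34, a large-subunit protein, had 47.7 CPM in knock-in and 31.0 CPM in wild-type B-gated cells (0.62), and Mrpl42 was at 0.61. Mrps15, of the small subunit, had 52.1 CPM and 32.2 CPM in T-gated cells (0.70), and Mrps35 was at 0.67. Of the factors that copy, transcribe and process the mitochondrial genome, 3 of 30 were higher and 7 lower in B-gated cells and 5 of 23 higher and 4 lower in T-gated cells, and the 7 of 30 and the 5 of 23 are near the shares over all genes. The translation factor Tsfm was at 0.84 and the RNA-processing protein Hsd17b10 at 0.55 in B-gated cells, and the RNA helicase Supv3l1 was at -0.92 and the DNA polymerase Polg at -0.64 in T-gated cells.

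Of respiratory chain assembly factors and electron carriers 9 of 37 were higher and 1 lower in B-gated cells and 5 of 30 higher and 0 lower in T-gated cells, where 5 of 30 is not above the 18.0% of all genes. The complex II assembly factor Sdhaf4 was at 0.58 in B-gated and 0.67 in T-gated cells, and the complex IV assembly factor Surf1 at 0.56 in T-gated cells. Cytochrome c1 (Cyc1), a complex III subunit that the symbol rule does not take in, had 74.8 CPM in knock-in and 52.1 CPM in wild-type B-gated cells (0.52). Of the citric acid cycle 5 of 18 were higher and 1 lower in B-gated cells and 6 of 18 higher and 0 lower in T-gated cells, with Idh2 (mitochondrial isocitrate dehydrogenase) at 0.91 and Fh1 (fumarase) at 0.82 in B-gated cells, and Dlat (pyruvate dehydrogenase) and Idh2 at 0.60 in T-gated cells. Of carriers and import components 9 of 25 were higher and 1 lower, and 7 of 25 higher and 0 lower, with the ADP/ATP carrier Slc25a4 at 0.50 and the import motor anchor Timm44 at -0.56 in B-gated cells, and the import receptor Timm50 at 0.68 and prohibitin (Phb) at 0.56 in T-gated cells. Of the biogenesis regulators, 0 of 8 in B-gated and 0 of 7 in T-gated cells passed the threshold in either direction, with Gabpb1 at -0.318 and Nrf1 at -0.27 in T-gated cells.

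Glycolysis, the cytosolic route to ATP, had 8 of 17 features higher and 3 lower in B-gated cells and 9 of 15 higher and 0 lower in T-gated cells, with sums at 0.44 and 0.38, above those of the nuclear respiratory subunits. The 3 lower of 17 are near the 20.9% of all genes in B-gated cells. Gapdh had 745.6 CPM in knock-in and 491.0 CPM in wild-type B-gated cells (0.60), and Aldoa had 219.3 CPM and 134.9 CPM in T-gated cells (0.70), where Tpi1 was at 0.52. The hexokinase gene Hk2 had 4.68 CPM in knock-in and 9.32 CPM in wild-type B-gated cells (-0.99), on 59 and 163 UMIs. The part of transcript length in these lists was not tested.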

How the data were processed

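For each library the authors deposited a matrix of UMI counts by gene and barcode, unnormalized. Its header records Cell Ranger 6.1.2, per the file headers, whereas version 7.1.0 stands in the submitters' processing notes together with Seurat 5.0.3 and the build mm10. The sources used here do not give the annotation, the barcode filter or the treatment of intronic reads. All further values were computed from the deposited counts.

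Of the 32285 features, 32158 (99.6%) matched the GENCODE annotation of GRCm38 (mm10) by Ensembl ID, which gave transcript lengths and overlaps. Promoters came from RefSeq (GRCm38.p6). Cells with at least 500 UMIs, 200 genes and under 10% mitochondrial UMIs were kept, and doublets called by Scrublet (scanpy 1.11.5, expected rate 0.08) were removed, 132 in knock-in and 187 in wild-type. Gates took 84.8% of knock-in and 86.4% of wild-type kept cells, with the plasma gate taking precedence over the B gate. Raw UMIs were summed per library and gate, divided by the gate's total and given as CPM or percent, with exact Poisson or Clopper-Pearson intervals, and ratios with exact conditional binomial intervals (scipy 1.17.1). PCR copies are collapsed by UMI, and free RNA in droplets is not removed. Ratios need at least 100 UMIs over both libraries in the gate, and a library at 0 UMIs is set to 3 counts. No p-value was computed, because cells are not replicates. The interval was tested on simulated counts.

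Genes were named by rule: all mitochondrial genes, in each complex the 3 highest and 3 lowest nuclear members (assembly factors included) in B-gated and T-gated cells, core subunits, tissue-restricted isoforms, and the 2 largest ratios of each other list. Other names in the text (Ndufa6 among them) were chosen after their values were seen. Members, lists and gates were chosen with earlier results of these data known. TMM factors came from edgeR 4.0.16 (R 4.3.3), used for scaling only.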

Additional observations from a re-analysis of the deposited data

Results flagged for a closer look

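The summed nuclear-encoded subunits of plasma-gated cells lay below 0 (log2 ratio -0.092), as did those of complex IV (-0.161) and complex V (-0.141), while the same sums lay above 0 in B-gated and T-gated cells, each with a counting interval that excluded 0. The difference between the gates was not tested. With cycling cells left out the 3 plasma ratios were 0.02, -0.03 and -0.01, and with immunoglobulin left out of the total they were 0.11, 0.04 and 0.06. In those forms the intervals included 0, except that of the whole nuclear sum without immunoglobulin (0.07 to 0.15).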

How the results depend on the processing

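The mitochondrial sum stayed below 0 and the nuclear sum above 0 in B-gated and T-gated cells under all alternatives run; a ratio that left its counting interval is given here. In B-gated cells the mitochondrial ratio was -0.32 with no mitochondrial limit, -0.13 with a 5% limit, -0.25 with TMM factors or each cell weighted equally, -0.26 with cells thinned to 1000 UMIs, -0.28 without immunoglobulin and -0.27 without cycling cells (both chosen after the data had been seen), and -0.30 with at least 1000 UMIs and 500 genes, 3 gate markers, totals without mitochondrial or ribosomal protein UMIs, or sub-gates weighted alike. In T-gated cells it was -0.17 with no limit, -0.08 with a 5% limit, -0.20 without ribosomal proteins, -0.18 with TMM and -0.16 with sub-gates weighted. The B-gated nuclear ratio was 0.09 with a 5% limit, 0.13 with 3 gate markers or without immunoglobulin, 0.10 without mitochondrial or ribosomal protein UMIs, 0.15 with TMM, 0.07 with equal weights, and 0.08 thinned or without cycling cells. The T-gated one was 0.04 without ribosomal proteins, 0.05 with TMM, 0.10 with equal weights or sub-gates weighted, and 0.11 without cycling cells. Of nuclear members in B-gated cells 10 of 76 were higher with equal weights (15.4% of all genes), 12 without cycling cells (13.8%), 3 at a log2 threshold of 0.58 (4.28%) and 5 with the length trend removed (9.93%), so that the share of members was below that of all genes or near it in these settings, and 5, 0 and 7 were lower with a 5% limit, at 0.58 and with the trend removed. In T-gated cells 6 of 76 were higher without ribosomal proteins (14.5% of all genes), 19 of 74 thinned (22.3%), 1 of 76 at 0.58 (4.86%) and 4 with the trend removed (15.4%), and 5 were lower thinned or with no minimum, 1 at 0.58 and 7 with the trend removed. With the 5% limit mt-Co1 turned to 0.05 in both gates and the mitochondrial complex V sum to 0.01 in T-gated cells. Fewer members pass a higher threshold by construction. The 5% limit leaves out cells by the mitochondrial share that is compared, and it lies between the B-gated medians of 4.21% in knock-in and 5.02% in wild-type cells. The cause of the other changes was not tested. Thinning left out 131 knock-in and 26 wild-type B-gated cells, and 47 and 5 T-gated cells. TMM put the median of all genes at -0.01 in B-gated cells, in place of -0.05, and at -0.01 in T-gated cells, in place of 0.03. No paired analysis was possible because each genotype has 1 library, and leaving out a replicate was not possible for the same reason. Depth limits the small gates, where a subunit often has under 100 UMIs.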
